A study of Mus musculus with 6 samples.

Results

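The small leucine-rich proteoglycans (SLRPs) are secreted matrix proteins, and 7 of their genes were followed here by symbol: Dcn, Bgn, Aspn, Fmod, Lum, Prelp and Ogn. They were 7 of the 11773 genes in the deposited gene table and had 8 of the 22330 rows in the transcript table. The cells were 2H11, a mouse line that the labels call endothelial and trace to an axillary lymph node of strain C3H/HeJ. After starvation the cultures received, for 48 h, either BMP4 (3 libraries) or BMP4 together with palovarotene (3 libraries), a retinoid agonist selective for the receptor RAR gamma. Both groups received BMP4 and starvation, no group lacked BMP4, and both came from a single line. Nothing in the labels says that the 3 libraries of a group were grown separately, and the p-values therefore cover only the spread of these libraries, possibly a technical one.

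Small leucine-rich proteoglycans have a core of leucine-rich repeats that binds collagen fibrils and sets their diameter and spacing. Some carry chondroitin or dermatan sulfate chains, others keratan sulfate, and several bind growth factors of the TGF-beta and BMP families. They fall into classes by sequence and gene structure: decorin, biglycan and asporin in class I, fibromodulin, lumican and PRELP in class II, and osteoglycin in class III. They are typical products of fibroblasts, tendon, cartilage and bone cells.

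The label of the line was set against markers. Of 15 endothelial markers 4 were listed (Flt1, Vwf, Tek and Egfl7), with a summed level of 8.02 to 8.34 FPKM in the BMP4 libraries and 3.05 to 3.39 with palovarotene, and Pecam1 and Cdh5 are not analysed here. All 11 fibroblast markers were listed, with sums of 1309 to 1370 FPKM in the BMP4 group and 1294 to 1352 FPKM in the other. Of these markers 3 rose and 5 fell, which is 72.7% called, against 43% of all genes tested. Dpt fell from 20.0 ± 1.43 to 0.345 ± 0.0332 FPKM and Lox from 260.8 ± 26.5 to 92.2 ± 4.18, and Pdgfra rose from 9.25 ± 0.540 to 28.0 ± 0.579 (SD, n = 3). The summed level of the 5 listed of 7 smooth muscle and pericyte markers was 259 to 264 FPKM in the BMP4 group and 125 to 132 FPKM in the other, and that of the 2 listed of 7 leukocyte markers was 16.6 to 17.8 and 10.1 to 11.1. For chondrocytes 2 of 7 markers were listed (4.93 to 5.37 and 2.32 to 2.35 FPKM), and for epithelium 2 of 7 (41.2 to 43.9 and 34.1 to 35.0 FPKM). The epithelial markers went opposite ways, Krt14 falling from 32.5 ± 2.26 to 2.52 ± 0.263 FPKM and Krt19 rising from 9.98 ± 1.13 to 32.015 ± 0.582; these 5 genes were picked after their values were seen. None of the marker genes named was at 0 in a library. In bulk RNA, fewer cells of a type and less RNA per cell cannot be told apart, and the part of these shifts in the results that follow was not tested.

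Ogn was the member that rose and Aspn and Fmod were those that fell most, and Ogn and Aspn lie within 80.1 kb on chromosome 13. The 250 bases before the RefSeq start site of these 3 genes are shown because they carry the largest changes. They were chr13:49607765-49608014 for Ogn, chr13:49544193-49544442 for Aspn and chr1:134037004-134037253 for Fmod, all on the plus strand of GRCm38.p6. Capitals mark letters that match the TATA-box core TATAAA or the CCAAT core, on either strand and at any distance from the start site. Both TATA matches in Ogn overlap each other.
Ogn: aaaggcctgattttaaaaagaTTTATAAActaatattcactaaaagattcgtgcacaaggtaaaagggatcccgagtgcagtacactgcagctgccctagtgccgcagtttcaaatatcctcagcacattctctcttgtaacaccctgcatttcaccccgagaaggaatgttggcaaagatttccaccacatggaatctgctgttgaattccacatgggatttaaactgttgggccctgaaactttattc
Aspn: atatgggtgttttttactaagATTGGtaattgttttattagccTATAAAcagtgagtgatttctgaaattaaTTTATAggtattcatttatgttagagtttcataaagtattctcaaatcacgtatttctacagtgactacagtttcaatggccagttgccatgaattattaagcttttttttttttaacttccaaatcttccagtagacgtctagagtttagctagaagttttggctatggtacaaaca
Fmod: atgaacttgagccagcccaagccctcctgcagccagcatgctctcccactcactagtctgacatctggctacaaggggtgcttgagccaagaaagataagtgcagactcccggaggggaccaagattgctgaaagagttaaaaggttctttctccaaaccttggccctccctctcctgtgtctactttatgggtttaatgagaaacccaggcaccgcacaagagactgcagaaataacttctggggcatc

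RefSeq promoters were found for 5 of the 7 members (Bgn, Aspn, Fmod, Prelp and Ogn), and Dcn and Lum had no entry. None of these 5 windows held AGGTCA or GGTTCA on either strand, where 14% and 8.85% of all 32851 windows of the same length did. Retinoic acid response elements are built of repeats of these and similar letters. Other spellings of the repeat were not counted over all windows. Of these, GGGTCA does occur in the Prelp window, and AGTTCA occurs on the opposite strand of the Fmod window. None held GGCGCC or GTCTAGAC, which SMAD proteins bind, against 9.59% and 0.167% of all windows. At a share of 0.167% a match in 5 windows was hardly possible. At 14%, 8.85% and 9.59%, 5 windows were too few to show a lack. Shorter letters that SMAD proteins bind were not searched. TATAAA was found in Ogn and Aspn and in 12.4% of all windows, and CCAAT in Aspn and Prelp and in 33.8%. In Ogn the TATAAA matches began at -229 and -227 from the start site, and in Aspn at -207 and -178. The windows of Aspn and Ogn were poor in G and C (30% and 42%), that of Bgn was rich (64.4%), and the median over all windows was 52.4%. A match or its absence in these letters says nothing of binding.

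**Figure D1:**
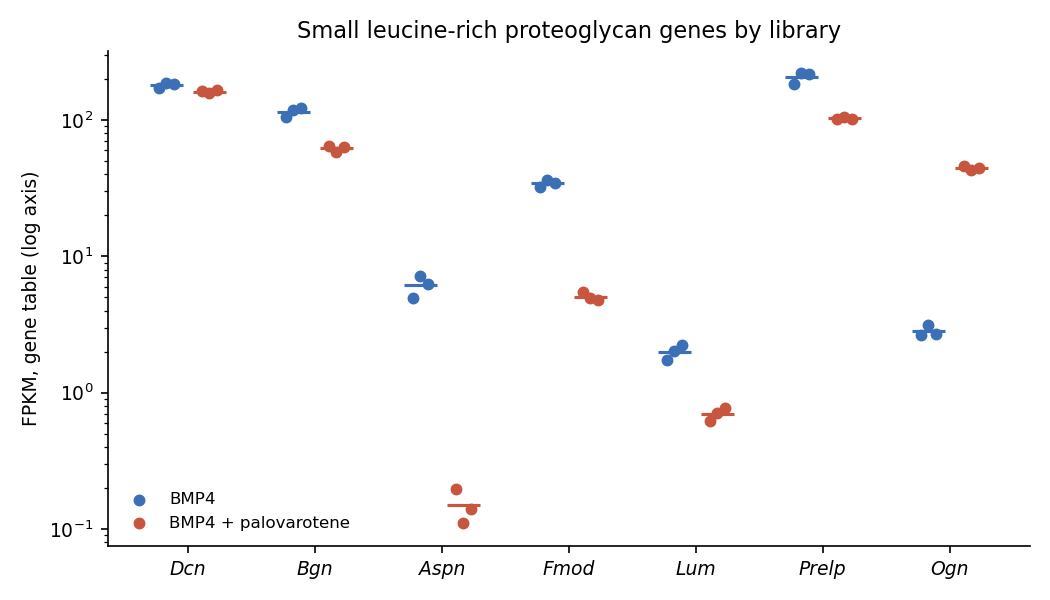
FPKM of the 7 genes in the gene table (log axis) for each of the 3 BMP4 and 3 BMP4 + palovarotene libraries; bars are group means. Ogn is higher in every palovarotene library than in any BMP4 library, and the other 6 genes are lower.

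With palovarotene, 6 of the 7 genes fell and 1 rose. The adjusted p, from limma over all 11584 genes tested, was below 0.05 for each of the 7. Of all genes tested, 43% were called, 19.1% higher and 23.8% lower. No member had overlapping groups, which held for 54.9% of all genes tested. The members' median log2 fold change was -0.88 on the log2(FPKM + 1) scale, beside -0.03 for all genes tested. The size of the change differed widely among members. Of all genes tested, 0.0863% moved at least as far as Ogn, 0.302% as far as Aspn and 0.345% as far as Fmod, but 55.1% as far as Dcn.

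Osteoglycin (Ogn; chromosome 13, 49608046 to 49624501, plus strand, GRCm38), a class III member first isolated from bone, was at 2.63, 3.11 and 2.68 FPKM in the BMP4 libraries and at 45.8, 43.1 and 44.8 FPKM with palovarotene. Every palovarotene library lay far above every BMP4 library, and the spread within a group was small. The mean rose from 2.81 ± 0.263 to 44.5 ± 1.38 FPKM (SD, n = 3), which is 15.8 times the BMP4 mean. On the log2 scale the rise was 3.58 (SE 0.0617, limma adjusted p = 2.04e-07), and Ogn ranked 7 by rise among all genes tested.

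Among the class I genes, Aspn encodes asporin, which carries a stretch of aspartate in place of a sugar chain and binds TGF-beta and BMP. Aspn (chromosome 13, 49544443 to 49567565, plus strand) was at 4.98, 7.13 and 6.25 FPKM with BMP4 and at 0.197, 0.110 and 0.139 FPKM with palovarotene. The palovarotene libraries were close to the bottom of the measured range, and the groups were far apart. The mean fell from 6.12 ± 1.08 to 0.149 ± 0.0445 FPKM (SD, n = 3), so that the BMP4 mean was 41.1 times the palovarotene mean. On the log2(FPKM + 1) scale, which understates changes at low levels, the difference was -2.62 (SE 0.111, adjusted p = 5.18e-06), and with a pseudocount of 0.1 it was -4.64.

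Bgn encodes biglycan, which carries chondroitin or dermatan sulfate chains and is abundant in bone matrix. Bgn (chromosome X, 73483602 to 73495933, plus strand) was at 105, 119 and 122 FPKM with BMP4 and at 64.8, 58.7 and 63.0 FPKM with palovarotene. The lowest BMP4 library lay above the highest palovarotene library. The log2 difference was -0.88 (SE 0.0691, adjusted p = 9e-05), from a mean of 115 ± 9.28 to 62.2 ± 3.09 FPKM (SD, n = 3).

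Decorin, the product of Dcn, coats collagen fibrils and sequesters TGF-beta. Dcn (chromosome 10, 97479609 to 97518143, plus strand) was at 171, 187 and 182 FPKM with BMP4 and at 162, 158 and 165 FPKM with palovarotene. The groups did not overlap, but the gap between them (165 against 171 FPKM) was smaller than the spread of the BMP4 libraries. The log2 difference was -0.15 (SE 0.0461, adjusted p = 0.0341). The call was lost without BMP4 replicate 2 (adjusted p = 0.0813), BMP4 replicate 3 (0.0865) or BMP4 + palovarotene replicate 1 (0.0962), replicate 2 (0.112) or replicate 3 (0.0756), and it was also lost with median-ratio scaling (0.102), without the variance trend (0.0509) and with a replicate block (0.108). The adjusted p over the settings tried ran from 0.00842 to 0.112.

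Of the class II genes, Fmod encodes fibromodulin, a keratan sulfate proteoglycan of tendon and cartilage. Fmod (chromosome 1, 134037254 to 134048277, plus strand) was at 32.1, 36.5 and 34.4 FPKM with BMP4 and at 5.47, 4.94 and 4.75 FPKM with palovarotene. All palovarotene libraries were far below all BMP4 libraries. The mean was 34.3 ± 2.22 FPKM without palovarotene and 5.06 ± 0.373 with it (SD, n = 3), and the log2 difference was -2.54 (SE 0.0679, adjusted p = 7.39e-07).

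Prelp encodes a class II protein whose basic end binds heparan sulfate and which links basement membranes to connective tissue. Prelp (chromosome 1, 133910304 to 133921414, minus strand) was at 183, 221 and 217 FPKM with BMP4 and at 102, 105 and 101 FPKM with palovarotene. BMP4 replicate 1 was the lowest of its group and still lay well above the palovarotene libraries. The mean was 207 ± 20.8 FPKM without palovarotene and 103 ± 1.73 with it (SD, n = 3), and the log2 difference was -1.0 (SE 0.0743, adjusted p = 6.93e-05).

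Lumican, the product of Lum, is the keratan sulfate proteoglycan that orders the collagen of the cornea. Lum (chromosome 10, 97565128 to 97572703, plus strand) was at 1.74, 2.03 and 2.23 FPKM with BMP4 and at 0.616, 0.706 and 0.776 FPKM with palovarotene. It was low in all 6 libraries, without overlap between groups. The log2 difference was -0.82 (SE 0.0753, adjusted p = 0.000189), and it was -1.39 with a pseudocount of 0.1. The BMP4 mean was 2.86 times the palovarotene mean, a ratio that the pseudocount shrinks at such low levels.

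How the gene value was built matters for the levels of these genes. In 368 genes of the series with 2 or more annotated transcripts, all of them listed, the gene FPKM equalled the transcript FPKM weighted by length and divided by the merged exon length of the gene in 100% of cases (within 1% in every library), and equalled the plain sum of transcript FPKM in 4.08%. The merged exons of Dcn span 5838 bases in GENCODE vM21, while its main transcript Dcn-201 has 1758 bases. For Bgn the lengths were 6099 and 2419 bases. The gene FPKM of Dcn was therefore 0.305 to 0.311 times that of Dcn-201, and that of Bgn 0.399 to 0.407 times that of Bgn-201. For Lum, Prelp and Ogn this ratio rounded to 1.00, for Fmod it was 0.944 to 0.946 and for Aspn 0.981 to 1.35. Levels of different genes are therefore ranked first by transcript. Sums and shares are given by gene, where Dcn and Bgn count for less, with values by transcript beside them. The ratio between the groups was nearly the same by gene and by main transcript for Bgn (BMP4 mean 1.85 times the palovarotene mean in both), Fmod (6.79 and 6.80) and Prelp (2.01 in both), but for Aspn it was 41.1 by gene and 65.9 by transcript, with 1 palovarotene library at 0.

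**Figure D2:**
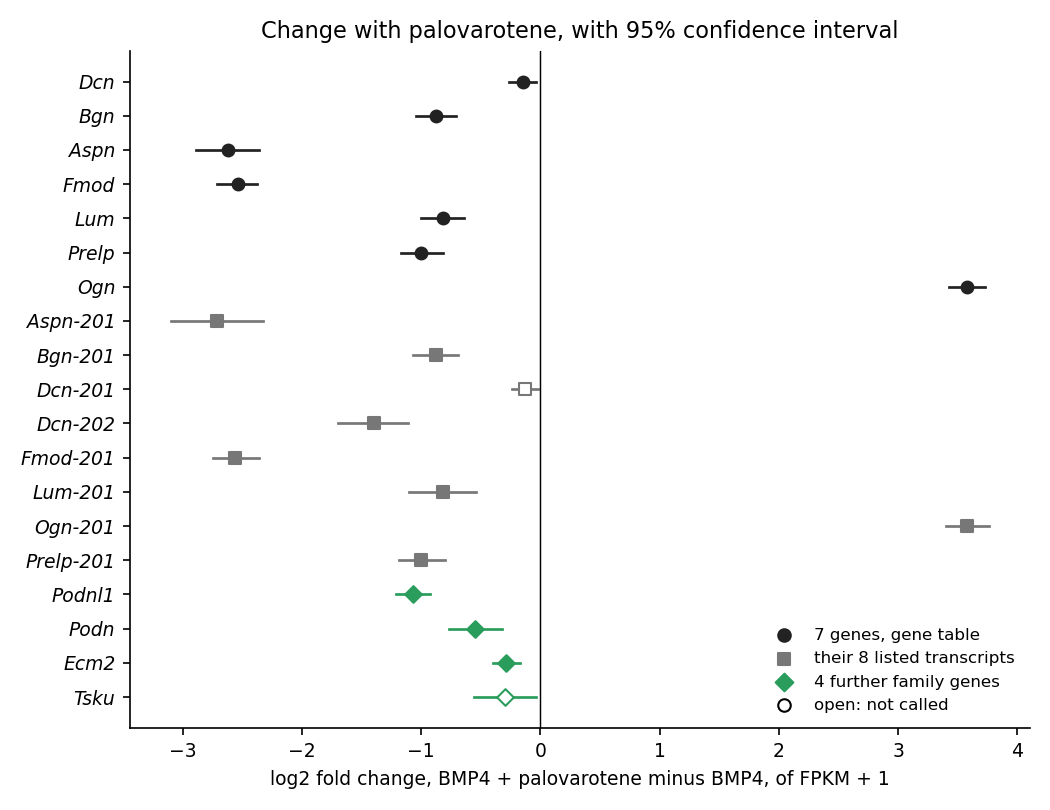
Log2 fold change of FPKM + 1 (BMP4 + palovarotene minus BMP4) with its 95% confidence interval from limma for the 7 genes, their 8 listed transcripts and 4 further genes of the family. Open symbols did not pass the adjusted p; Dcn-202 is lower at -1.4 while Dcn-201 is at -0.13.

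In the transcript table, 6 of the 8 transcripts fell, 1 rose and 1 was not called, where 12.9% of the 21101 transcripts tested were called, 6.49% higher and 6.42% lower. The groups overlapped in none of the 8, and did not overlap in 34.4% of all transcripts tested. Dcn was the member with more than 1 listed transcript. Dcn-201 was at 551, 602 and 588 FPKM with BMP4 and at 531, 520 and 540 FPKM with palovarotene, a log2 fold change of -0.13 (95% confidence interval -0.24 to -0.02, adjusted p = 0.126). Without BMP4 replicate 1 that transcript was called lower (adjusted p = 0.0351). Dcn-202 was at 13.4, 16.9 and 15.9 FPKM with BMP4 and at 5.69, 4.56 and 5.33 FPKM with palovarotene. It fell by 1.4 on the log2 scale (SE 0.118, adjusted p = 0.00172).

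Both Dcn transcripts have 8 exons and a coding length of 1062 bases in GENCODE vM21, and they share 7 exons. They differ in the first exon, and that of Dcn-202 begins 2758 bases downstream. Dcn-202 made up 2.37%, 2.73% and 2.64% of the summed Dcn transcripts with BMP4 and 1.06%, 0.869% and 0.978% with palovarotene. Its share was lower in all 3 palovarotene libraries than in any BMP4 library (exact permutation test, two-sided p = 0.1, the smallest that 3 against 3 allows). Aspn-201, the listed transcript of Aspn, was at 5.07, 7.19 and 6.34 FPKM with BMP4 and at 0.201, 0.0814 and 0 FPKM with palovarotene, where its gene value was above 0 in each library. The call of Lum-201 was lost with the replicate block (adjusted p = 0.0744).

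By transcript, Dcn stood first in both groups, at 596 ± 27.9 FPKM with BMP4 and 535 ± 10.4 with palovarotene (SD, n = 3, sum of its 2 listed transcripts). With BMP4 it was followed by Bgn (286 ± 23.5), Prelp (206 ± 20.8), Fmod (36.4 ± 2.34), Aspn (5.07 to 7.19), Ogn (2.81 ± 0.263) and Lum (2 ± 0.246). No neighbours in this order had overlapping ranges over the 3 libraries. With palovarotene Ogn moved up to the fourth place (44.5 ± 1.38 FPKM), behind Prelp (102 ± 1.71) and ahead of Fmod (5.35 ± 0.401), while Aspn moved to the last place behind Lum (0.70 ± 0.0804). In the gene table the BMP4 order began with Prelp, Dcn and Bgn, and the ranges of Prelp and Dcn overlapped (183 to 221 and 171 to 187 FPKM). With palovarotene it began with Dcn, Prelp and Bgn, so that Prelp stood ahead of Bgn in both groups there and behind it by transcript.

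**Figure D3:**
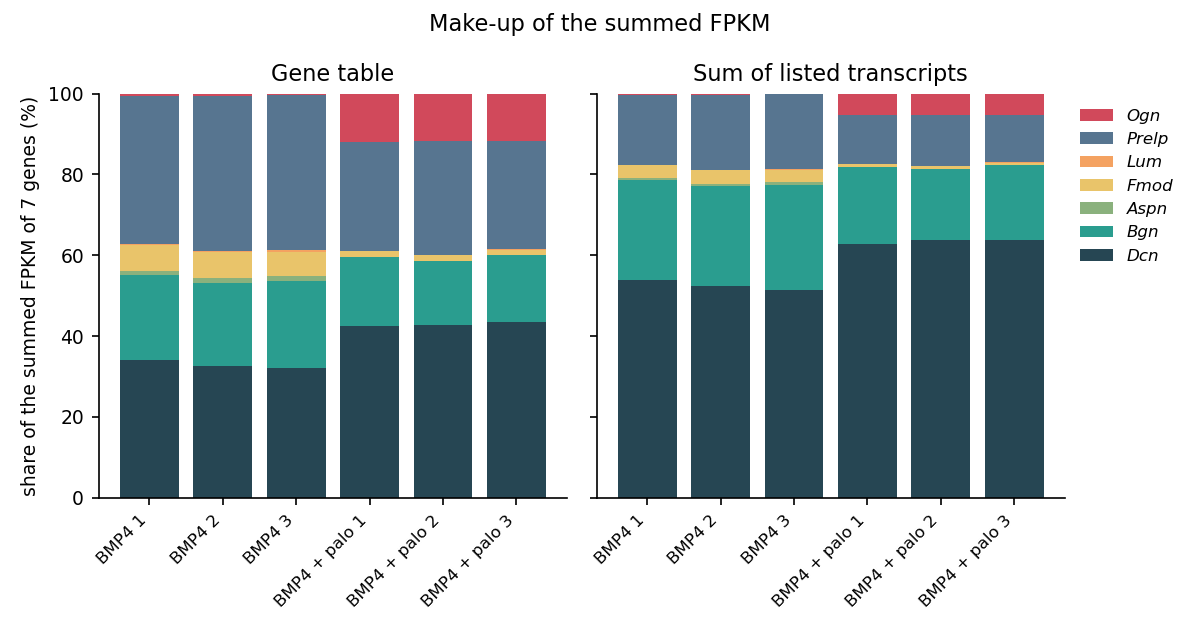
Share (%) of each of the 7 genes in their summed FPKM for each library, from the gene table and from the listed transcripts. The Ogn share is below 1% in the BMP4 libraries and 11.6% to 12.0% with palovarotene in the gene table. The Dcn share is also larger, while the FPKM of Dcn is lower.

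The summed FPKM of the 7 genes was 500, 575 and 567 in the BMP4 libraries and 381, 371 and 379 with palovarotene. The mean sum with palovarotene, 377 ± 5.78 FPKM, was 68.9% of the BMP4 mean of 547 ± 41.5 (SD, n = 3), a mean log2 difference of -0.53, and the groups did not overlap (exact permutation test, two-sided p = 0.1, the smallest possible). As a share of all listed FPKM the family made up 0.221% ± 0.0144 with BMP4 and 0.152% ± 0.00235 with palovarotene. From listed transcripts the sum was 1135 ± 73.9 with BMP4 and 843 ± 18.2 FPKM with palovarotene, 74.3% of the BMP4 mean. Without Dcn, the gene sum was 367 ± 33.2 and 215 ± 3.63 FPKM.

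The make-up of the sum also differed between the groups. A share can grow while the level falls, as it did for Dcn. Ogn made up 0.514% ± 0.0358 of the gene sum with BMP4 and 11.8% ± 0.194 with palovarotene (SD, n = 3), and Dcn 32.9% ± 1.07 and 42.9% ± 0.502. Prelp held 37.7% ± 0.991 with BMP4 and 27.3% ± 0.853 with palovarotene, Fmod 6.28% ± 0.195 and 1.34% ± 0.0913, and Bgn 21.1% ± 0.441 and 16.5% ± 0.574. The shares of the scarcer members were 1.11% and 0.0394% for Aspn and 0.365% and 0.186% for Lum. None of these 7 shares overlapped between groups, and each had the smallest exact permutation p of 0.1 (adjusted over the 7, 0.1), which the design cannot lower. From listed transcripts Dcn held 52.5% ± 1.16 with BMP4 and 63.5% ± 0.543 with palovarotene, and Ogn 0.248% ± 0.0174 and 5.28% ± 0.0722. There Bgn held 25.2% ± 0.724 and 18.3% ± 0.722 and Prelp 18.1% ± 0.677 and 12.1% ± 0.460. Prelp was thus the largest part with BMP4 only in the gene sum.

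The members also share their places in the genome. Prelp and Fmod lie within 138 kb on chromosome 1, Dcn and Lum within 93.1 kb on chromosome 10 and Aspn and Ogn within 80.1 kb on chromosome 13, and Bgn lies alone on chromosome X. Class I genes and Ogn had 7 or 8 exons in their main transcript, and class II genes had 3. Coding lengths were alike, from 894 bases in Ogn to 1134 in Prelp. Within a pair, changes differed. By gene value, Ogn was 0.529, 0.437 and 0.429 times Aspn with BMP4 and 232, 391 and 322 times Aspn with palovarotene. By listed transcript it was 0.519, 0.433 and 0.423 times Aspn with BMP4. With palovarotene it was 228 and 530 times Aspn in replicates 1 and 2. Replicate 3 gave no ratio, since Aspn-201 was at 0 there. These palovarotene ratios rest on Aspn gene values of 0.110 to 0.197 FPKM, close to the bottom of the measured range. Prelp was, by gene value, 5.69, 6.03 and 6.32 times Fmod with BMP4 and 18.7, 21.2 and 21.3 times Fmod with palovarotene. By listed transcript it was 5.36, 5.68 and 5.94 times Fmod with BMP4 and 17.6, 19.9 and 20.1 times with palovarotene.

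Cenpp, a centromere protein gene on the opposite strand, spans both Aspn and Ogn. The libraries were stranded, per the labels' protocols, but the sources used here do not give the strand setting of the quantification. Cenpp itself was at 7.50, 6.96 and 7.23 FPKM with BMP4 and at 6.40, 6.83 and 6.31 with palovarotene, and was not called (log2 fold change -0.13, adjusted p = 0.0881). No other listed gene overlapped a member; GENCODE places the antisense gene Gm15851 over Prelp.

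**Figure D4:**
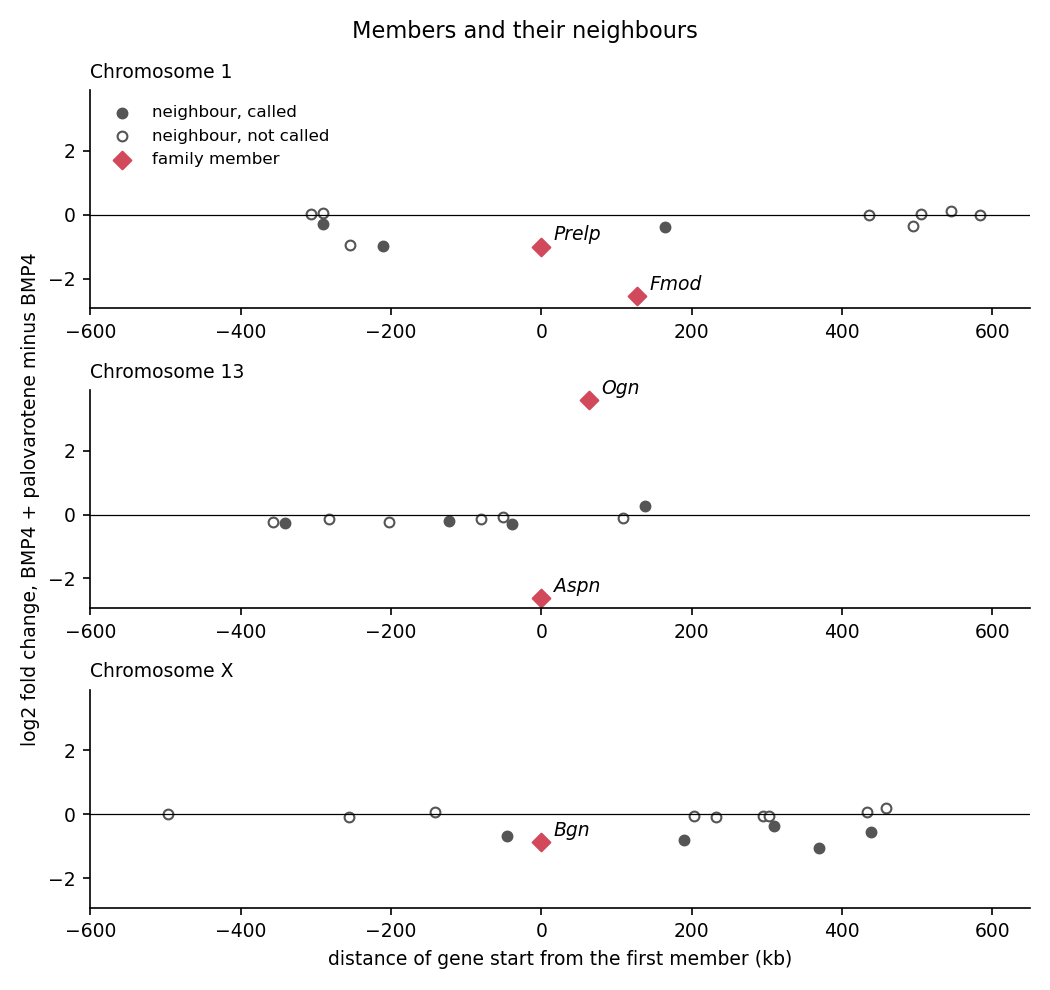
Log2 fold change (BMP4 + palovarotene minus BMP4) of the members and of tested genes within 500 kb, against the distance in kb of each gene start from the first member of its cluster. Ogn and Aspn lie at 3.58 and -2.62 among neighbours between -0.29 (Ecm2, itself a further family gene) and 0.26.

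Within 500 kb of the members, 36 other genes were listed and 35 tested, of which 1 was higher and 11 lower, against 19.1% and 23.8% of all genes tested. On chromosome 13 the 10 neighbours ranged from -0.29 (Ecm2) to 0.26 (Iars). Ecm2 is also counted among the further family genes below. Iars, the higher one, was no longer called when BMP4 + palovarotene replicate 1 or replicate 3 was left out, so that 0 were higher. On chromosome X, L1cam, a cell adhesion gene, fell by 1.07 on the log2 scale and Haus7, the closest listed neighbour of Bgn, by 0.67. On chromosome 1, Atp2b4, a calcium pump gene, fell by 0.98 and Btg2 by 0.39. No other gene was listed within 500 kb of Dcn and Lum. Iars, Haus7, L1cam, Atp2b4 and Btg2 were picked after their values were seen.

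Of 11 further genes of the family, 4 were listed and tested, with 3 lower and none higher. That is 75% called, against 43% of all genes tested. Podn and Ecm2 had a palovarotene mean under 0.5 FPKM, below which no listed gene had its higher group mean. They were thus listed only through their BMP4 values, and a fall was partly fixed in advance. The 75% is therefore no result about the family. Podnl1, which encodes a podocan-like protein, fell from 6.50 ± 0.345 to 2.57 ± 0.147 FPKM (SD, n = 3), and its log2 difference was -1.07 (adjusted p = 1.84e-05). Podn, podocan, fell from 1.02 ± 0.251 to 0.377 ± 0.0562 FPKM and Ecm2 from 0.670 ± 0.0646 to 0.369 ± 0.00455. Ecm2 was under the level for the test without BMP4 replicate 2 or replicate 3. Tsku, tsukushi, was at 5.69 ± 0.230 and 4.47 ± 0.788 FPKM and was not called (adjusted p = 0.0608), though without BMP4 + palovarotene replicate 3 its adjusted p was below 0.05. Omd, Kera, Epyc, Optc, Chad, Chadl and Nyx are not analysed here.

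**Figure D5:**
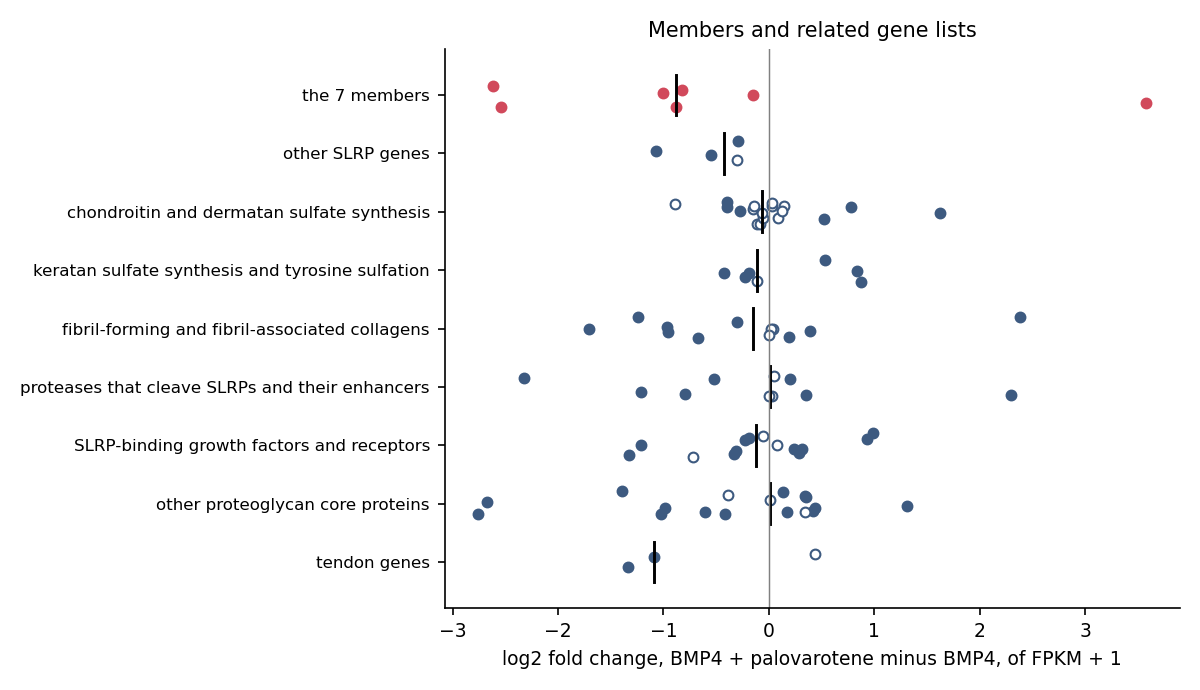
Log2 fold change (BMP4 + palovarotene minus BMP4) of tested genes in the family and in 8 related lists; filled points passed the adjusted p and black bars are medians. The medians of the lists lie between -1.09 (tendon genes) and 0.01, and that of the 7 members at -0.88.

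Of 22 genes whose enzymes build the chondroitin and dermatan sulfate chains of these proteins, 18 were tested, with 3 higher and 3 lower (33.3% called, below the 43% of all genes tested; median log2 fold change -0.06); without BMP4 replicate 2 the number lower was 5. Chst11, a chondroitin sulfotransferase gene, rose by 1.62 on the log2 scale, from 6.97 ± 0.396 FPKM with BMP4 to 23.4 ± 0.418 (SD, n = 3), and Chst15 and Ust, of other sulfotransferases, rose by 0.78 and 0.52. B4galt7, which builds the linkage between chain and core protein, fell from 10.9 ± 0.331 to 8.02 ± 0.406 FPKM. Of 10 genes of keratan sulfate synthesis and tyrosine sulfation, 7 were tested, with 3 higher and 3 lower (85.7% called, median -0.11). Chst2 rose by 0.87, B4galt4 by 0.84 and Tpst2, a tyrosine sulfotransferase gene, by 0.53, and Chst1, the main keratan sulfate sulfotransferase gene, fell from 18.8 ± 0.70 to 13.7 ± 0.409 FPKM.

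The collagens that these proteoglycans bind were divided, with 3 of 12 tested genes higher and 6 lower (median -0.15). That is 75% called, against 43% of all genes tested. Col14a1, a fibril-associated collagen gene, rose by 2.38 on the log2 scale, from 17.6 ± 0.918 FPKM with BMP4 to 95.8 ± 3.26 with palovarotene (SD, n = 3). Of the genes for collagen VI, Col6a1 fell by 0.97, Col6a2 by 1.24 and Col6a3 by 1.71. Of the chains of collagen I, Col1a1 rose from 523 ± 32.9 FPKM with BMP4 to 684 ± 25.2 (log2 difference 0.39, adjusted p = 0.00183), while Col1a2 was at 169 ± 8.10 FPKM with BMP4 and 169 ± 4.24 with palovarotene and was not called. Col3a1, the chain of collagen III, was at 142 ± 12.3 and 146 ± 1.58 FPKM and was not called; these 3 genes were chosen after their values were seen.

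Of 15 genes of proteases known to cleave members of the family and of their enhancers, 10 were tested. With 3 higher and 4 lower (median 0.01), 70% were called, against 43% of all genes tested. Pcolce2, an enhancer of procollagen C-proteinase, fell from 87.5 ± 2.13 to 16.8 ± 0.603 FPKM (SD, n = 3) and Mmp3, stromelysin, rose from 14.8 ± 1.42 to 76.6 ± 1.92. Adamts5 and Mmp14 fell by 1.21 and 0.80. Bmp1, the protease that removes the propeptide of biglycan, was at 33.7 ± 1.61 and 33.7 ± 2.12 FPKM and was not called (chosen after its values were seen).

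Among 14 tested growth factors and receptors that bind these proteins, 5 were higher and 6 lower (median -0.13). That is 78.6% called, against 43% of all genes tested. The number higher was 3 without BMP4 replicate 2 or without BMP4 + palovarotene replicate 2. Tlr2, a receptor for soluble biglycan, fell from 6.20 ± 0.329 to 1.86 ± 0.0706 FPKM (SD, n = 3) and Bmp4 from 5.34 ± 0.114 to 1.74 ± 0.148. Egfr, a receptor that decorin binds, rose from 7.0 ± 0.283 to 14.3 ± 0.428 and Tgfb2 from 2.66 ± 0.218 to 6.25 ± 0.359. Of 17 other proteoglycan core protein genes, 7 were higher and 7 lower (82.4% called, median 0.01). Vcan, the large chondroitin sulfate proteoglycan versican, fell from 55.6 ± 5.07 to 7.33 ± 0.129 FPKM, Prg4, lubricin, from 9.18 ± 1.04 to 0.593 ± 0.0323 and Col18a1 by 1.39, whereas Sdc4, a cell-surface heparan sulfate proteoglycan, rose from 37.8 ± 1.89 to 94.8 ± 4.65. Of the 3 tendon genes tested, 66.7% were called. Tnc and Scx fell by 1.09 and 1.34, and Egr1 was at 31.9 ± 8.69 and 43.5 ± 12.7 FPKM and was not called.

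The genes with values most like each member were found by Euclidean distance between the 6 values of log2(FPKM + 1), each gene centred on its own mean, over the tested genes. For Ogn they were Rarb (0.18), Rarres2 (0.30) and Sprr1a (0.32), with log2 fold changes of 3.51, 3.47 and 3.50. For Aspn they were Prg4 (0.19), Gprin3 (0.21) and Fmod (0.22), the one case of another member among the 3 nearest. For Fmod they included Pkp1 (0.13) and Atp1b1 (0.15), and for Prelp they were Atp6v1g1 (0.13), Popdc3 (0.14) and Aqp1 (0.14). Bgn was nearest to Cd9 (0.0621), Eva1c and Maf (0.10 each), Lum to Irs1 (0.082), Plek2 (0.12) and Serpina3n (0.14), and Dcn to Cenpq (0.0365), Dek (0.0421) and Cap1 (0.043). These distances are descriptions over 6 libraries of 2 groups, in which any genes with changes of like size lie close.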

How the data were processed

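PolyA RNA of 6 libraries was sequenced from both ends after stranded preparation, per the labels' protocols. Per the submitters' processing notes, the tools were FastQC, cutadapt, HISAT2 and StringTie (no versions named) and the build was GRCm38. The authors deposited FPKM per gene and per transcript, per the file headers; the sources used here do not say how rows were selected, but the higher group mean was never below 0.5004 FPKM for a gene. Each table held 1 line without values. FPKM keeps no counts, so the depth is unknown and counting intervals cannot be had; listed genes summed to 244119 to 251290 FPKM per library.

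Groups came from the labels. Values were compared with limma 3.58.1 (R 4.3.3) on log2(FPKM + 1), with a variance trend, over all rows whose mean reached 0.5 FPKM (11584 genes, 21101 transcripts), with Benjamini-Hochberg adjustment over all of them; calls were made at 0.05. Sums and shares were tested by exact two-sided permutation (scipy 1.17.1). The test was tried on simulated data first. Sequences are RefSeq's; exon lengths are from GENCODE vM21, where all 7 members had the coordinates of the tables.

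The members, lists and tests were chosen with earlier results of these data known. Named genes are the members, the 4 further family genes, up to 4 genes of smallest p in each list, the 3 nearest genes of each member and genes that overlap one; others are marked, and 1 of the nearest genes is not reported here. Alternatives were a pseudocount of 0.1, no filter or a mean of 5 FPKM, quantile and median-ratio scaling, a fit with no trend, the replicate number as a block, and leaving out 1 library at a time.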

Additional observations from a re-analysis of the deposited data

How the results depend on the processing

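Ogn was higher and the other 6 members lower in direction under each alternative that tested them. The number of members called lower was 5 to 6 over the libraries left out and 4 of 5 tested with a mean of at least 5 FPKM. The log2 fold change ran from 3.55 to 3.94 for Ogn and from -4.64 to -2.52 for Aspn; 3.94 and -4.64 came from the pseudocount of 0.1. The summed FPKM differed by -0.53 on the log2 scale, by -0.43 from listed transcripts, by -0.77 without Dcn and by -0.63 as a mean of log2(FPKM + 1). From listed transcripts the shares differed by 11 points for Dcn, -6.82 for Bgn, -0.533 for Aspn, -2.57 for Fmod, -0.0928 for Lum, -5.98 for Prelp and 5.04 for Ogn, since Dcn and Bgn count for more there. Deviations of same-numbered libraries correlated at r from -0.136 to -0.021, and those of other-numbered libraries at r from -0.067 to 0.128. With 3 libraries in a group these values cannot tell whether the numbers pair the libraries. With a replicate block 3844 in place of 4976 genes and 715 in place of 2724 transcripts were called, the SLRP-binding list had 3 genes higher and the tendon list 1. With median-ratio scaling, which moved the median of all genes from -0.03 to 0.00, 2 neighbouring genes were higher. The alternatives for lists and neighbours were chosen after seeing the data. Over the libraries left out, 0 to 1 neighbouring genes were higher, 3 to 4 SLRP-binding genes were higher and 3 to 5 chondroitin and dermatan sulfate genes were lower. Depth is unknown from FPKM, so no counting error can be given for the low levels of Aspn and Lum.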
